A study of Danio rerio with 16 samples.

Results

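Keratins and other genes of the skin epithelium were described in whole zebrafish embryos (Danio rerio) of the Tropical 5D line. Members were all genes of the count table whose symbol begins with krt and a digit or with cyt1, together with 13 named genes of skin junctions, plaques and surface cells, wherever at least 4 samples held 10 or more counts. The rule found 34 identifiers, and 31 of the 32266 genes in the table were kept, made up of 19 keratins, 6 junction and plaque genes and 6 other skin genes. The 3 left out were krt93, krt95 and krt98, with summed counts of 1, 0 and 61 over all samples, and 1 named gene, dspa, matched no identifier under that symbol. The gene table names 2 identifiers DSP, the symbol of desmoplakin, and these were not counted as members. All 31 members held at least 10 counts in all 16 samples, from 16 counts of krt18a.2 in its lowest sample to 652054 counts of krt4 in its highest.

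The embryos carried a morpholino, a synthetic antisense oligomer, either against slincR or as a control. slincR is a long intergenic noncoding RNA whose gene lies close to sox9b. At about 6 hours post fertilization (hpf) they were exposed for 1 h to 1 ng/mL TCDD (2,3,7,8-tetrachlorodibenzo-p-dioxin), which activates the aryl hydrocarbon receptor, or to 0.1% DMSO, the vehicle, and RNA was taken from whole embryos at 48 hpf. The labels set a molar concentration beside the TCDD dose that does not correspond to 1 ng/mL, and which of them is meant was not settled here. The 4 groups were slincR morphants in TCDD, slincR morphants in DMSO, control morphants in TCDD and control morphants in DMSO, with 4 biological replicates each, and each sample pooled 20 embryos. No uninjected embryos are among these samples, so all groups carry a morpholino.

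Keratins are the intermediate filament proteins of epithelia, and they assemble as pairs of a type I and a type II chain. At this stage the zebrafish skin is made of an outer periderm over an inner basal layer that rests on a basement membrane. Claudins seal the periderm as tight junction proteins, plakins such as periplakin and envoplakin tie keratin filaments to the cell edge, and p63 is the transcription factor that marks basal keratinocytes. In mammals the skin is a known target of TCDD.

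Total gene counts ran from 14977267 to 23142081 per sample. The library of control morphants in DMSO replicate 4 differed from the rest on the leading principal component over all genes, at 63.4 against −19.4 to 17.7. Calls of members and of list genes that were lost without it are named. Levels are CPM, read counts scaled to a common library size after adjustment by the trimmed mean of M values, and per-sample values run from replicate 1 to 4. They are not compared between genes, since transcript lengths were not used here. In the check of the exposure, 6 of 6 tested target genes of the aryl hydrocarbon receptor rose with TCDD in both kinds of morphants, with summed levels of 708 to 854 CPM in slincR morphants in TCDD against 71.6 to 93.7 CPM in DMSO, and of 787 to 882 CPM in control morphants in TCDD against 78.9 to 87.1 CPM in DMSO. Of the 7 symbols sought for this check, cyp1a matched no identifier and was not read. No identifier was paired with slincR, so the effect of the morpholino on its target was not checked. A gene passed the test at an adjusted p under 0.05 in edgeR's quasi-likelihood test with Benjamini-Hochberg adjustment over all 20630 genes tested, and all 31 members were tested.

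Few members passed the test in any comparison. With TCDD in control morphants 2 of 31 passed (6.45% against 0.62% of all genes tested), and between morphants in DMSO 1 of 31 (3.23% against 0.15%). Among 31 members 1 call alone makes 3.23%, so a share above that of all genes was fixed once any member passed. These shares are therefore not read as a trait of the set. In control morphants TCDD raised krt1-19d and lowered krt15, and in DMSO slincR morphants had less icn2 than control morphants. Under 24 other settings of the fit, the call of krt1-19d always held. That of krt15 was lost in 6 and that of icn2 in 17. In slincR morphants with TCDD, and between both kinds of morphants in TCDD, 0 members passed the test, although the fold changes of the same 3 genes had the same signs there. The members that mark skin layers, such as krt4, krt5, TP63, epcam, cldne, cldni and PPL, did not pass in any comparison. In samples of whole embryos, fewer cells of a type and less RNA per cell cannot be told apart.

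The member with the most reads was krt4, the type II keratin whose promoter is widely used to mark the zebrafish periderm. It was rank 1 of all 32266 genes by summed count, and it held 2.12% to 3.3% of the gene counts of a library, with a median of 2.47%. The other 30 members held between 0.53% and 0.64% together. The share of krt4 was highest in control morphants in DMSO, where replicates 1 and 4 had 3.3% and 3.14% and replicates 2 and 3 had 2.28% and 2.41%. In CPM, krt4 had 26071, 24117, 24728 and 25429 in slincR morphants in TCDD, 23768, 25907, 24602 and 28999 in slincR morphants in DMSO, 23828, 23562, 20801 and 26187 in control morphants in TCDD, and 33760, 22424, 23790 and 32986 in control morphants in DMSO. All groups overlapped. Its log2 fold change with TCDD was −0.04 ± 0.11 (standard error, SE) in slincR morphants and −0.26 ± 0.11 in control morphants, with adjusted p = 0.992 and 0.379 in edgeR's test. Without control morphants in DMSO replicate 4 the second value was −0.18, and with the percent of entries in no gene as covariate it was −0.37 and passed the test (adjusted p = 0.0447).

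Spread within groups differed between members. The standard deviation (SD) of log2 CPM within groups had a median of 0.18 over the members and 0.23 over all genes tested. It was smallest for PPL and evpla, at 0.08 each, and 0.1 for TP63, and largest for krt18a.2, at 0.64, and krt99, at 0.52, both among the members of lowest count. In the TCDD comparison of control morphants the SE of the log2 fold change was 0.08 for PPL and 0.37 for krt18a.2.

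**Figure D1:**
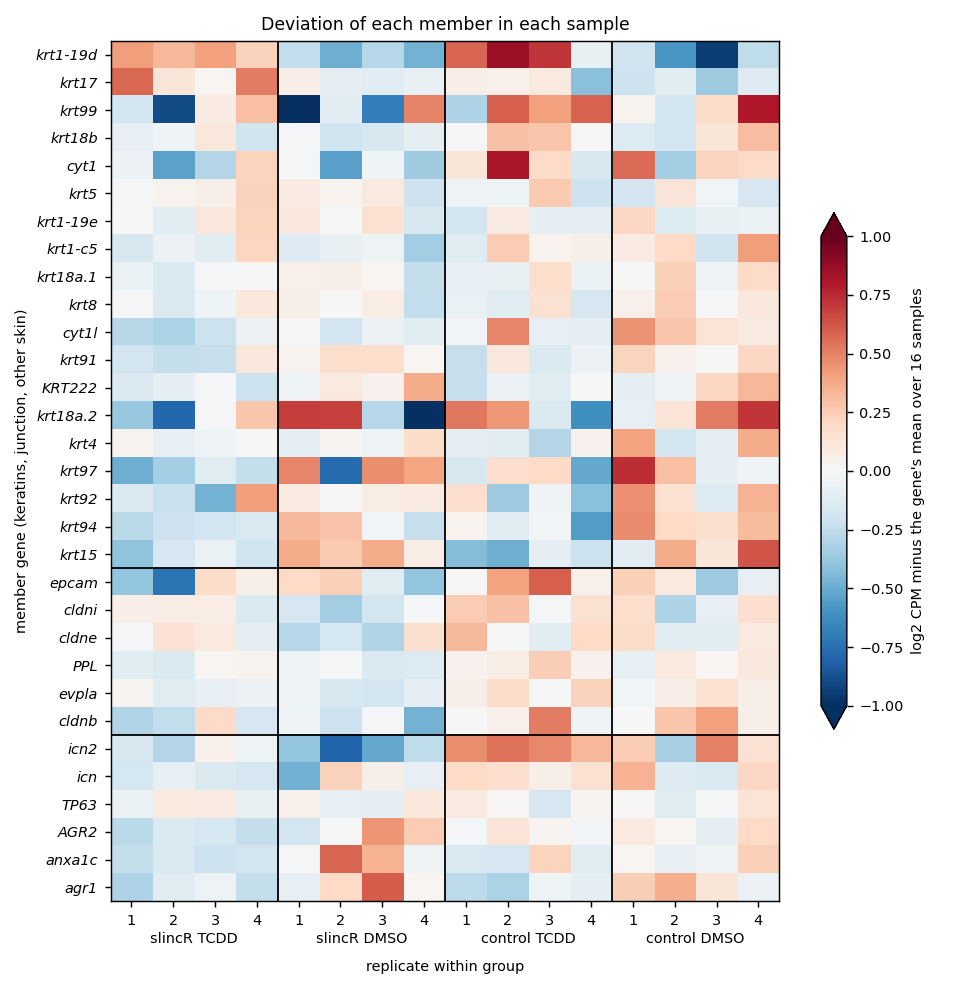
Heat map of log2 CPM of each member minus its mean over the 16 samples; the color scale is capped at −1 and 1. Rows are members by role, columns are replicates within the 4 groups. krt1-19d is above its mean in all 4 slincR samples in TCDD, and icn2 is below its mean in all 4 slincR samples in DMSO.

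The first question of the design is which members respond to TCDD. In control morphants 2 of 31 members passed the test (6.45%), against 0.62% of all genes tested. The member that rose was krt1-19d, a type I keratin gene. Its level was 18.21, 21.97, 19.88 and 11.54 CPM in control morphants in TCDD, against 10.55, 8.109, 6.317 and 10.17 CPM in control morphants in DMSO. The groups did not overlap, and replicate 4 in TCDD lay nearest to the DMSO samples. The means were 17.9 ± 4.51 and 8.79 ± 1.96 CPM (SD, n = 4 each), a 2.03-fold increase with a log2 fold change of 1.02 ± 0.17 (SE; edgeR adjusted p = 0.00157). Without control morphants in DMSO replicate 4 the log2 fold change was 1.1 (edgeR adjusted p = 0.00196).

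The keratin that fell was krt15, a type I chain that in mammals marks basal keratinocytes. Control morphants in TCDD had 61.3, 59.1, 77.4 and 71.4 CPM of krt15, against 76.7, 107, 90.1 and 128 CPM in control morphants in DMSO. The groups overlapped only in TCDD replicate 3 and DMSO replicate 1, and DMSO replicate 4 was the highest sample. The means were 67.3 ± 8.57 and 100 ± 22.1 CPM (SD, n = 4 each), with a log2 fold change of −0.58 ± 0.12 (SE; edgeR adjusted p = 0.0266). This call was lost without that DMSO replicate 4, where the log2 fold change was −0.44 and the adjusted p 0.113. In the fit to only the groups compared it was lost at a log2 fold change of −0.58 (edgeR adjusted p = 0.121). It was also lost without DMSO replicate 2 (−0.55, adjusted p = 0.0728), without TCDD replicate 1 (−0.54, adjusted p = 0.117), without TCDD replicate 2 (−0.52, adjusted p = 0.127) and without TCDD replicate 4 (−0.61, adjusted p = 0.0539). The authors' deposited table of 132 genes for this comparison also lists these members, krt1-19d with a log2 fold change of 1.03 and krt15 with one of −0.58. It comes from the same samples.

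In slincR morphants 0 of 31 members passed the edgeR test with TCDD, against 0.383% of all genes tested, and DESeq2 called 2, krt1-19d and krt15. The authors' deposited table of 80 genes lists 0 members. The level of krt1-19d was 16.21, 15.31, 16.17 and 14.23 CPM in slincR morphants in TCDD, against 10.25, 8.648, 9.984 and 8.761 CPM in slincR morphants in DMSO, with no overlap. Its log2 fold change was 0.72 ± 0.17 (SE; edgeR adjusted p = 0.0631). It kept this value and passed without control morphants in TCDD replicate 4 (adjusted p = 0.0128) or in DMSO replicate 3 (adjusted p = 0.038) or 4 (adjusted p = 0.0463). These libraries lie outside this comparison and enter it through the filter, the scaling, the shared spread and the adjustment. In the fit to only the groups compared krt1-19d passed too (adjusted p = 0.00254). It passed under 8 of 24 other settings and failed in the rest, with adjusted p up to 0.221. For krt15, slincR morphants in TCDD had 62.8, 73.6, 79.0 and 72.2 CPM, against 107, 99.6, 107 and 87.1 CPM in slincR morphants in DMSO, again with no overlap, and a log2 fold change of −0.48 ± 0.12 (SE; edgeR adjusted p = 0.112). This value too passed without control morphants in DMSO replicate 4 (adjusted p = 0.0415) and in the fit to only the groups compared (adjusted p = 0.0109). For krt15 only 3 of 24 other settings passed, and the rest failed with adjusted p up to 0.457. The difference between the TCDD responses, slincR minus control morphants, was −0.30 ± 0.24 for krt1-19d and 0.10 ± 0.18 for krt15, and neither passed (adjusted p = 1 each). A missed call in slincR morphants is thus not shown to be a different response.

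**Figure D2:**
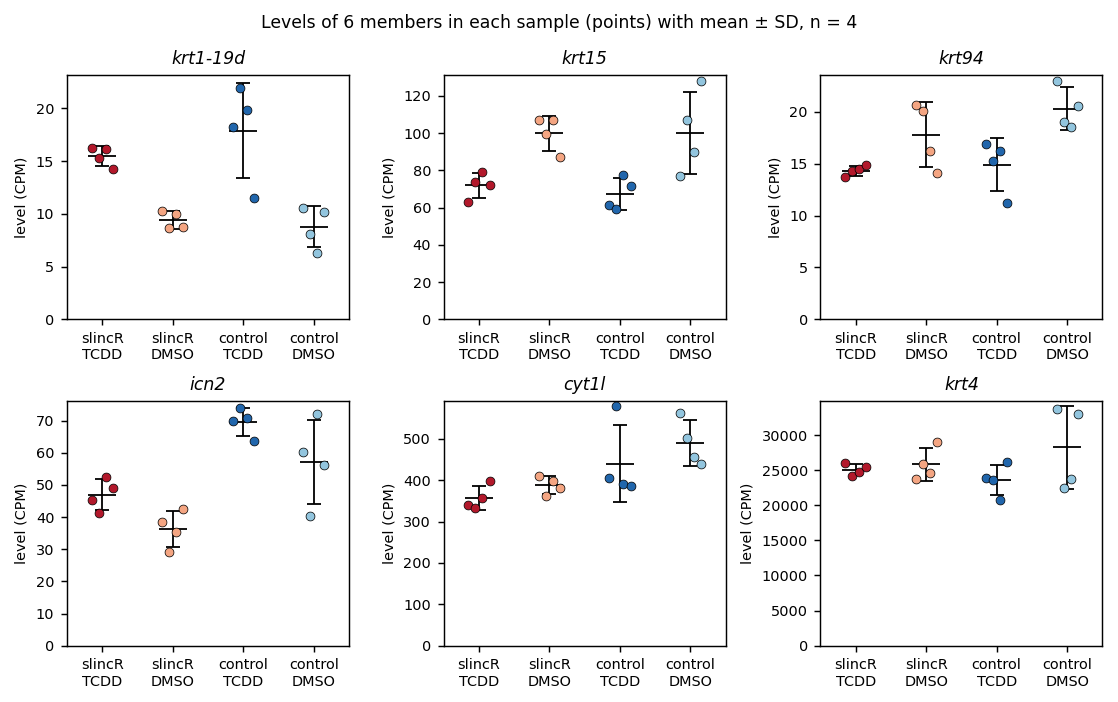
Levels in CPM (linear axes from 0) of krt1-19d, krt15, krt94, icn2, cyt1l and krt4 in each of the 16 samples; points are samples and bars the mean ± SD of 4. krt1-19d is higher in the TCDD than in the DMSO samples of both kinds of morphants, and krt4 splits into 2 high and 2 low samples in control morphants in DMSO.

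At an unadjusted p under 0.05 in the edgeR test, 8 of 31 members stood out in control morphants (2 higher and 6 lower; 25.8%) against 11.2% of all genes, and 11 in slincR morphants (3 higher and 8 lower; 35.5%) against 6.91%. The samples did not overlap for 2 members in control morphants, where 5.58% of all genes did not overlap, and for 3 members in slincR morphants, where 5.24% did not. The median log2 fold change of the members was −0.05 in control and 0.00 in slincR morphants, and over all genes it was 0.00 in each. Without control morphants in DMSO replicate 4 the member median in control morphants was 0.02. Both TCDD comparisons share no library, and 24 of the 31 members (77.4%) had the same sign in both, against 62.6% of all genes tested. Of these, 11 members were positive and 13 negative in both.

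Next to krt15, krt94 had the smallest p among keratins that were lower with TCDD in control morphants. In the order of coding genes of a newer zebrafish assembly (RefSeq, GRCz12tu), krt94, krt15 and krt99 stand close together, with 1 coding gene between krt94 and krt15. The level of krt94 was 13.7, 14.3, 14.4 and 14.8 CPM in slincR morphants in TCDD against 20.7, 20.1, 16.2 and 14.1 CPM in slincR morphants in DMSO. It was 16.9, 15.3, 16.2 and 11.2 CPM in control morphants in TCDD against 23.0, 19.0, 18.5 and 20.6 CPM in control morphants in DMSO, where the groups did not overlap. The log2 fold changes were −0.31 ± 0.14 and −0.45 ± 0.14 (SE; edgeR adjusted p = 0.642 and 0.165), short of the threshold in both. The third gene of that run, krt99, had values of 0.09 ± 0.29 and 0.12 ± 0.28.

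A longer run held krt1-19d, krt1-19e, krt92, cyt1l, cyt1, krt17 and krt91 with no other coding gene between them. Their log2 fold changes with TCDD ran from −0.24 to 0.72 in slincR morphants, with 4 positive and 3 negative, and from −0.37 to 1.02 in control morphants, with 3 positive and 4 negative. The adjacent krt1-19e, another type I gene, had 0.03 ± 0.09 and −0.05 ± 0.09. Reads that aligned to more than 1 place (24.44% to 29.35% of the entries counted) were not assigned to genes, so counts of near-identical keratins are uncertain.

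Within the same run krt17, a type I keratin, had 22.7, 16.6, 15.4 and 21.7 CPM in slincR morphants in TCDD, 15.9, 14.3, 14.1 and 14.5 CPM in slincR morphants in DMSO, 15.9, 15.8, 16.3 and 11.4 CPM in control morphants in TCDD, and 13.2, 14.1, 11.9 and 13.9 CPM in control morphants in DMSO. Replicates 1 and 4 of slincR morphants in TCDD were the highest of the 16 samples. Its log2 fold change with TCDD was 0.38 ± 0.13 in slincR and 0.16 ± 0.14 in control morphants (SE; edgeR adjusted p = 0.409 and 0.698). For krt91 the values were −0.24 ± 0.09 and −0.20 ± 0.09, and for krt97, which had the lowest value of the members in slincR morphants, −0.51 ± 0.22 and −0.32 ± 0.21, all short of the threshold.

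In the run that holds krt1-19d, krt92 had log2 fold changes with TCDD of −0.13 ± 0.18 in slincR and −0.37 ± 0.18 in control morphants (SE; edgeR adjusted p = 0.972 and 0.443). Values of krt18a.2 were −0.28 ± 0.38 and −0.23 ± 0.37, and those of KRT222, a keratin-like gene, −0.24 ± 0.11 and −0.20 ± 0.11, all short of the threshold. The type II gene krt5 had 1086, 1125, 1143 and 1284 CPM in slincR morphants in TCDD, 1160, 1125, 1171 and 949 CPM in slincR morphants in DMSO, 1059, 1060, 1313 and 951 CPM in control morphants in TCDD, and 962, 1198, 1079 and 975 CPM in control morphants in DMSO. All groups overlapped, and its log2 fold change lay between 0.06 and 0.08 with an SE of 0.1 in the 2 TCDD and the 2 morpholino comparisons. Its neighbours krt8 and krt18a.1, members of the keratin pair of simple epithelia, had values with TCDD of 0.00 ± 0.09 and −0.04 ± 0.09 in slincR morphants, and of −0.15 ± 0.09 and −0.11 ± 0.09 in control morphants. Over all 19 keratins the median log2 fold change with TCDD was −0.04 in slincR and −0.15 in control morphants. The median of all members in control morphants changed sign without control morphants in DMSO replicate 4.

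**Figure D3:**
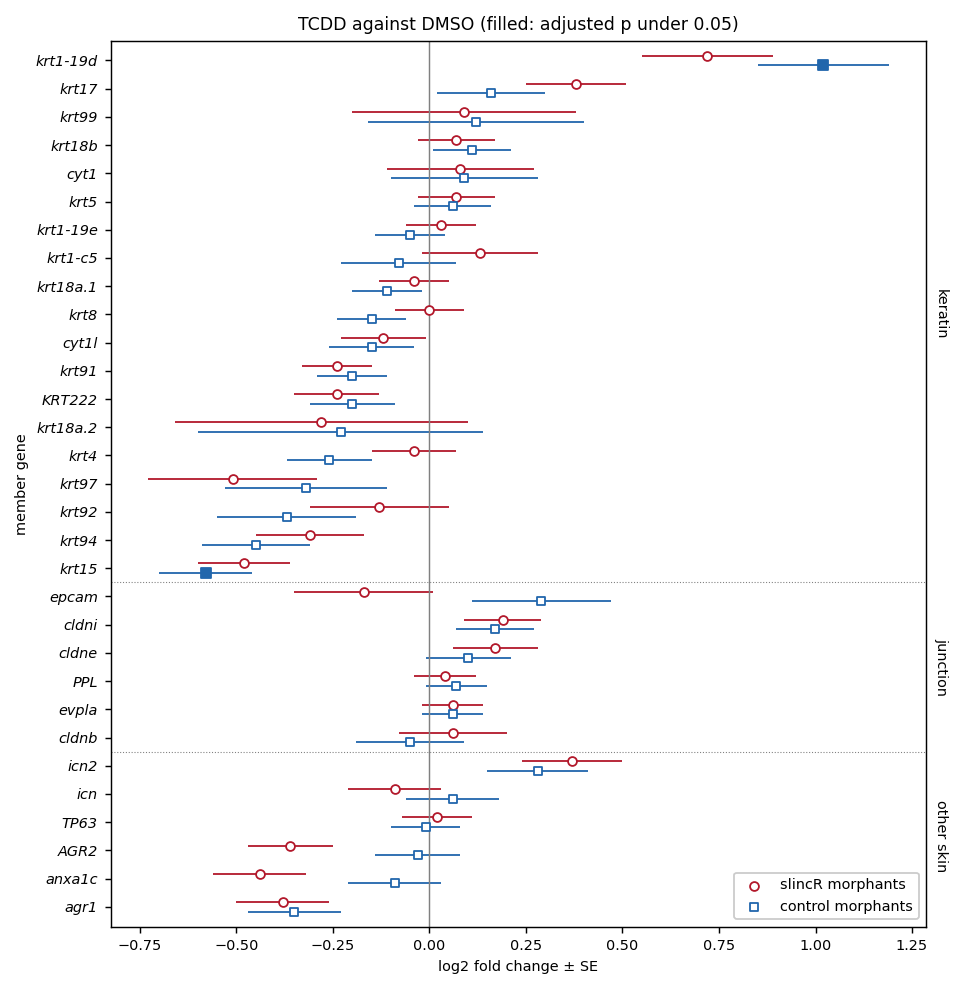
Log2 fold change ± SE of TCDD against DMSO for the 31 members by role, in slincR morphants (circles) and control morphants (squares); filled symbols passed the test over all genes. Filled symbols are krt1-19d at 1.02 and krt15 at −0.58 in control morphants, and most members lie within 0.5 of 0.

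The 6 junction and plaque genes lay near 0 with TCDD, with medians of 0.06 in slincR and 0.08 in control morphants. Of them 0 passed, where 0.383% and 0.62% of all genes tested did. At such shares 0 calls among 6 genes do not show that they were unchanged. Periplakin (PPL) had 285, 278, 311 and 314 CPM in slincR morphants in TCDD, 296, 304, 277 and 279 CPM in slincR morphants in DMSO, 317, 323, 364 and 317 CPM in control morphants in TCDD, and 290, 328, 312 and 330 CPM in control morphants in DMSO. Its log2 fold change with TCDD was 0.04 ± 0.08 in slincR and 0.07 ± 0.08 in control morphants. The claudin gene cldni had 213, 214, 214 and 184 CPM in slincR morphants in TCDD, 181, 160, 179 and 202 CPM in slincR morphants in DMSO, 242, 249, 200 and 226 CPM in control morphants in TCDD, and 229, 164, 192 and 228 CPM in control morphants in DMSO. Its values with TCDD were 0.19 ± 0.10 and 0.17 ± 0.10, with overlap in both. Another claudin gene, cldne, had 56.6, 63.5, 61.4 and 53.6 CPM in slincR morphants in TCDD, 47.2, 50.9, 46.7 and 64.3 CPM in slincR morphants in DMSO, 71.9, 57.7, 53.5 and 66.1 CPM in control morphants in TCDD, and 65.1, 53.2, 53.0 and 61.4 CPM in control morphants in DMSO, with 0.17 ± 0.11 and 0.10 ± 0.11.

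The adhesion gene epcam, which is expressed across epithelia, differed most between replicates among the junction genes. It had 25.5, 20.0, 37.7 and 34.6 CPM in slincR morphants in TCDD, 38.1, 39.1, 30.5 and 25.3 CPM in slincR morphants in DMSO, 33.5, 43.8, 50.4 and 34.5 CPM in control morphants in TCDD, and 39.2, 35.6, 25.9 and 31.5 CPM in control morphants in DMSO. The log2 fold change with TCDD was −0.17 ± 0.18 in slincR and 0.29 ± 0.18 in control morphants, and the difference between these responses was −0.47 ± 0.25 (SE; edgeR unadjusted p = 0.0739, adjusted p = 1).

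Among the other skin genes TP63, which encodes p63, was steady. It had 45.0, 50.4, 50.1 and 44.8 CPM in slincR morphants in TCDD, 48.9, 44.6, 44.1 and 50.7 CPM in slincR morphants in DMSO, 50.1, 47.6, 41.8 and 48.0 CPM in control morphants in TCDD, and 47.5, 43.2, 46.5 and 51.9 CPM in control morphants in DMSO. Its log2 fold changes lay between −0.01 and 0.02, each with an SE of 0.09, with TCDD and between morphants.

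The difference between the TCDD responses passed the test for 0 of 31 members, and over all genes for 0.0%. At an unadjusted p under 0.05 in the edgeR test it held 2 members (6.45%), AGR2 and anxa1c, both negative, against 2.99% of all genes. That share rests on 2 of 31 genes and does not show that members differed more than other genes. AGR2 encodes a protein disulfide isomerase of secretory epithelia. Its level was 41.9, 45.6, 44.7 and 42.8 CPM in slincR morphants in TCDD against 44.6, 50.5, 68.8 and 60.3 CPM in slincR morphants in DMSO, and 49.9, 55.3, 51.4 and 49.8 CPM in control morphants in TCDD against 54.1, 51.3, 47.2 and 58.0 CPM in control morphants in DMSO. The 4 samples of slincR morphants in TCDD lay below all samples of control morphants in TCDD. Its log2 fold change with TCDD was −0.36 ± 0.11 in slincR and −0.03 ± 0.11 in control morphants, a difference of −0.33 ± 0.15 (unadjusted p = 0.04, adjusted p = 1).

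The annexin gene anxa1c encodes a calcium-dependent phospholipid-binding protein. It had 162, 172, 164 and 167 CPM in slincR morphants in TCDD against 188, 286, 243 and 185 CPM in slincR morphants in DMSO, with no overlap, and 172, 170, 222 and 175 CPM in control morphants in TCDD against 193, 180, 186 and 225 CPM in control morphants in DMSO. Replicates 2 and 3 of slincR morphants in DMSO were the highest of all samples. The log2 fold changes with TCDD were −0.44 ± 0.12 and −0.09 ± 0.12, a difference of −0.35 ± 0.17 (edgeR unadjusted p = 0.0429, adjusted p = 1). The value in slincR morphants was −0.52 and passed the test without slincR morphants in DMSO replicate 4 (adjusted p = 0.047), the lowest sample of that group. This was the only 1 of 24 other settings in which it passed. Over these settings the value ran from −0.52 to −0.3, with adjusted p up to 0.591. The relative of AGR2, agr1, had values of −0.38 ± 0.12 in slincR and −0.35 ± 0.12 in control morphants, with adjusted p = 0.277 and 0.241.

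The second question is whether slincR and control morphants differ. In DMSO 1 of 31 members passed (3.23%), against 0.15% of all genes tested, and in TCDD 0 of 31, against 0.446%, where DESeq2 called 1, icn2. The member that fell was icn2, a gene of the ictacalcin family of S100-type calcium-binding proteins of fish epithelia. In DMSO it had 38.5, 29.1, 35.4 and 42.4 CPM in slincR morphants against 60.3, 40.2, 71.9 and 56.3 CPM in control morphants. The groups overlapped in slincR replicate 4 and control replicate 2. The means were 36.4 ± 5.63 and 57.2 ± 13.1 CPM (SD, n = 4 each), with a log2 fold change of −0.65 ± 0.13 (SE; edgeR adjusted p = 0.0482). This call lay close to the threshold, and it was lost under 17 of 24 other settings, with adjusted p up to 0.244 and log2 fold changes from −0.79 to −0.52. It was lost without slincR morphants in DMSO replicate 1 (adjusted p = 0.0796), 2 (0.219) or 3 (0.16), without control morphants in DMSO replicate 1 (0.101), 3 (0.191) or 4 (0.0838), and, with the fold change at −0.65, without any 1 of the slincR morphants in TCDD or of replicates 1, 2 and 4 of the control morphants in TCDD (0.0544 to 0.073).

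In TCDD icn2 had 45.4, 41.2, 52.5 and 49.0 CPM in slincR morphants against 70.0, 73.9, 70.8 and 63.8 CPM in control morphants, with no overlap. The log2 fold change was −0.57 ± 0.13 (SE; edgeR adjusted p = 0.0552), and it passed the test under 8 of 24 other settings, among them the fit to only the groups compared (adjusted p = 0.00276) and those without slincR morphants in DMSO replicate 2 (0.0424) or 4 (0.0406), or without control morphants in DMSO replicate 2 (0.0133) or 3 (0.033). With TCDD against DMSO icn2 had 0.37 ± 0.13 in slincR and 0.28 ± 0.13 in control morphants (adjusted p = 0.438 and 0.422).

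Its neighbour and paralog icn had 225, 240, 230 and 226 CPM in slincR morphants in TCDD, 182, 298, 264 and 240 CPM in slincR morphants in DMSO, 291, 285, 264 and 282 CPM in control morphants in TCDD, and 324, 232, 229 and 294 CPM in control morphants in DMSO. In TCDD the slincR samples lay below all control samples, and in DMSO the groups overlapped. The log2 fold change of icn was −0.28 ± 0.12 in TCDD and −0.13 ± 0.12 in DMSO (SE; edgeR adjusted p = 0.38 and 0.777).

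**Figure D4:**
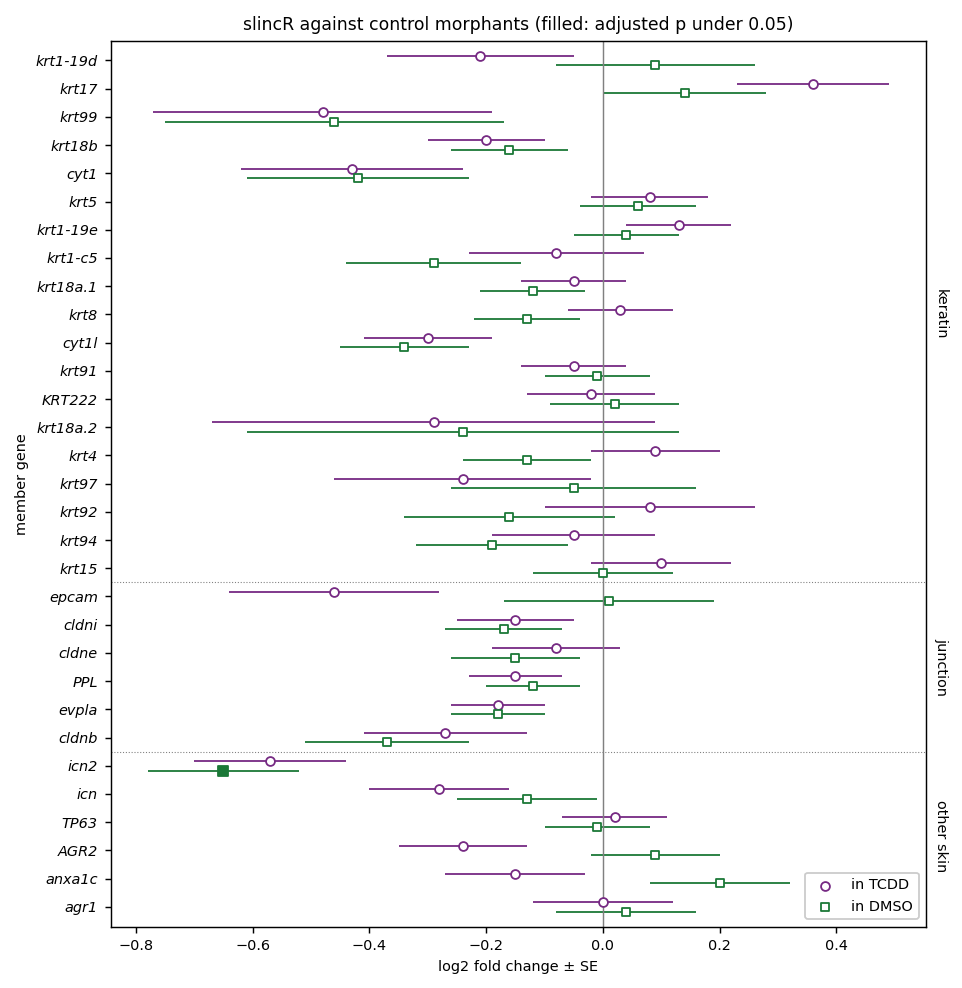
Log2 fold change ± SE of slincR against control morphants for the 31 members by role, in TCDD (circles) and DMSO (squares); the filled symbol passed the test over all genes. icn2 is lowest in both, at −0.57 in TCDD and −0.65 in DMSO, and 22 of 31 members lie below 0 in each comparison.

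Most members had negative values in slincR against control morphants. The median log2 fold change was −0.15 in TCDD and −0.13 in DMSO, with 22 of 31 members negative in each, while over all genes the median was 0.00. Both comparisons share no library, and 21 members (67.7%) had the same sign in both, against 63.8% of all genes tested. At an unadjusted p under 0.05 in the edgeR test, 8 members stood out in TCDD (1 higher and 7 lower; 25.8%) against 10.8% of all genes, and 5 in DMSO (all lower; 16.1%) against 9.11%. The samples did not overlap for 4 members in TCDD, where 7.66% of all genes did not overlap. In DMSO they did not overlap for 4 members, against 4.16% of all genes. The member higher at that unadjusted p in TCDD was krt17. Its log2 fold change was 0.36 ± 0.13 in TCDD and 0.14 ± 0.14 in DMSO (edgeR adjusted p = 0.306 and 0.796). In DMSO its groups did not overlap, but only narrowly. The lowest slincR sample had 14.11 CPM and the highest control sample 14.06 CPM.

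Of the keratins that were lower in slincR morphants, the neighbouring type I genes cyt1 and cyt1l had the lowest p. For cyt1l, slincR morphants had 340, 332, 356 and 397 CPM in TCDD and 411, 362, 397 and 380 CPM in DMSO. Control morphants had 405, 579, 390 and 387 CPM in TCDD and 563, 501, 455 and 439 CPM in DMSO, and the DMSO groups did not overlap. Its log2 fold change was −0.30 ± 0.11 in TCDD and −0.34 ± 0.11 in DMSO (SE; edgeR adjusted p = 0.291 and 0.353).

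Beside it cyt1, a keratin of the periderm, had 116, 83.5, 98.4 and 141 CPM in slincR morphants in TCDD against 131, 212, 138 and 108 CPM in control morphants in TCDD, and 120, 82.7, 117 and 94.6 CPM in slincR morphants in DMSO against 179, 95.3, 141 and 138 CPM in control morphants in DMSO. The groups overlapped in both, and the values were −0.43 ± 0.19 and −0.42 ± 0.19 (adjusted p = 0.397 and 0.505). For krt4 the log2 fold change was 0.09 ± 0.11 in TCDD and −0.13 ± 0.11 in DMSO. The medians of all 19 keratins were −0.05 and −0.13.

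The 6 junction genes had a median of −0.17 in TCDD, with 6 negative, and of −0.16 in DMSO, with 5 negative. Of them 0 passed, where 0.446% and 0.15% of all genes tested did. The claudin gene cldnb had 16.7, 17.4, 23.6 and 18.3 CPM in slincR morphants in TCDD against 20.6, 21.4, 29.4 and 20.1 CPM in control morphants in TCDD. In DMSO it had 20.1, 17.8, 20.3 and 14.9 CPM in slincR morphants against 20.6, 25.0, 27.4 and 21.5 CPM in control morphants, with no overlap. The log2 fold changes were −0.27 ± 0.14 and −0.37 ± 0.14 (SE; edgeR adjusted p = 0.513 and 0.447). The envoplakin gene evpla had −0.18 ± 0.08 in each, and epcam had −0.46 ± 0.18 in TCDD and 0.01 ± 0.18 in DMSO.

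Summed over the junction genes, levels were 796 to 856 CPM in slincR morphants in TCDD against 915 to 946 CPM in control morphants in TCDD, and 747 to 796 CPM in slincR morphants in DMSO against 837 to 902 CPM in control morphants in DMSO. PPL, evpla and cldni hold most of these counts, so the sums follow those genes. Summed keratin levels, which follow krt4, were 28214 to 30340 CPM and 28452 to 33021 CPM in slincR morphants in TCDD and DMSO, and 25461 to 30265 CPM and 27117 to 38581 CPM in control morphants in TCDD and DMSO.

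Other genes of the skin and neighbouring tissues were read from lists whose genes are no members. Of the symbols sought, 46 of 55 matched an identifier for periderm and surface epithelium, and 25 of 34 for basal epidermis and basement membrane. For desmosomes and adherens junctions 8 of 17 matched, and for ionocytes 15 of 23. The tested genes were 46 of periderm and surface epithelium, 24 of basal epidermis and basement membrane, and 8 of desmosomes and adherens junctions. Another 15 were of ionocytes, the ion-transporting cells of the skin. Of these lists, 0 genes passed the test in any of the 5 comparisons, where 0.0% to 0.62% of all genes tested passed. At such shares, 0 calls in lists of this size do not show that the genes were unchanged. The periderm list was negative for 30 of 46 genes in slincR against control morphants in TCDD (median −0.07). In DMSO it was negative for 35 of 46 (median −0.14). At an unadjusted p under 0.05 in the edgeR test it held 1 higher and 6 lower genes in TCDD, and 0 higher and 8 lower in DMSO. Over all genes tested, 4.78% were higher and 6.04% lower at that p in TCDD, and 4.5% and 4.61% in DMSO. The basal list was positive for 14 of 24 genes in TCDD (median 0.03) and for 16 of 24 in DMSO (median 0.11), and at that p it held 2 higher and 0 lower genes in TCDD and 5 higher and 0 lower in DMSO. The list of desmosomes and adherens junctions was positive for 6 of 8 genes in TCDD (median 0.05) and for 7 of 8 in DMSO (median 0.08), where the 6 junction members had 0 and 1 positive values, and at that p it held 1 higher gene in TCDD and 0 in DMSO.

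The ionocyte list was negative with TCDD for 12 of 15 genes in slincR morphants (median −0.24) and for 13 of 15 in control morphants (median −0.26). At an unadjusted p under 0.05 in the edgeR test it held 1 higher and 3 lower genes in slincR morphants and 0 higher and 6 lower in control morphants. Over all genes tested, 3.49% were higher and 3.43% lower at that p in slincR morphants, and 5.92% and 5.29% in control morphants. Its summed level was 220 to 251 CPM in slincR morphants in TCDD against 236 to 259 CPM in DMSO. In control morphants it was 221 to 229 CPM in TCDD against 237 to 275 CPM in DMSO. With TCDD the periderm list was negative for 16 of 46 genes in slincR and 22 of 46 in control morphants (medians 0.07 and 0.03). The basal list was so for 9 and 7 of 24 (medians 0.04 and 0.11), and that of desmosomes and adherens junctions for 3 and 2 of 8. A check list of 12 genes of tissues across the embryo, krt4 and TP63 among them, was negative for 8 and 10 (medians −0.06 and −0.12). Between morphants the ionocyte list was negative for 7 of 15 genes in TCDD (median 0.04) and for 9 of 15 in DMSO (median −0.12). With TCDD krt15 and krt94 also had negative values, and a link between these and the ionocyte genes was not tested. In the periderm list EHF, and in the basal list lamb3 and hmcn2, did not pass the filter on low counts, with summed counts of 52, 34 and 0.

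Of 8 mucous cell genes, 1 passed with TCDD, where 0.383% of all genes tested passed in slincR and 0.62% in control morphants. The mucin gene muc5.2 rose, with a log2 fold change of 0.90 ± 0.15 in slincR morphants and 1.42 ± 0.15 in control morphants (SE; edgeR adjusted p = 0.00173 and 2.3e-06). In the list of 12 fin fold genes, twist3 rose with TCDD in slincR morphants (0.69 ± 0.14, adjusted p = 0.0136), and BMP4 (0.36 ± 0.08, adjusted p = 0.0275) and msx2b (0.54 ± 0.13, adjusted p = 0.0485) rose in control morphants. The call of twist3 was lost without slincR morphants in TCDD replicate 2 or 4 or in DMSO replicate 4 (edgeR adjusted p up to 0.0769). That of BMP4 was lost without any 1 of the control morphants in TCDD or without those in DMSO replicate 2 or 4 (up to 0.0938). It was also lost in the fit to only the groups compared (edgeR adjusted p = 0.139). The call of msx2b was lost under 15 of 24 other settings (adjusted p up to 0.176). Of 12 genes of gut, pharynx and otic epithelium, the intestinal fatty acid binding protein gene FABP2 fell in slincR against control morphants, by 0.71 ± 0.11 on the log2 scale in TCDD and by 0.63 ± 0.11 in DMSO (adjusted p = 0.00337 and 0.0154). In DMSO that call was lost without slincR morphants replicate 3 (adjusted p = 0.117) or 4 (0.051) or control morphants replicate 1 (0.0663). The fit to only the groups compared lost it too (edgeR adjusted p = 0.0576). The lists of 9 hatching gland and 7 notochord genes held 0 genes past the test in any comparison, against 0.0% to 0.62% of all genes tested.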

How the data were processed

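The authors deposited raw counts per gene for 16 libraries of poly-A RNA, read as 150 bp pairs. Per the submitters' processing notes, alignment and counting used TopHat and HTSeq among other tools, on GRCz10. Settings, versions and strand use were not given in the sources used here. Overlapping or antisense partners are therefore uncertain. Entries in no gene were 12.78% to 16.06% of the total, multiply aligned ones 24.44% to 29.35% and ambiguous ones 0.27% to 0.33%. These stayed out. From replicate 1 to 4, the percent in no gene was 15.77, 16.06, 13.4 and 15.89 in control morphants in TCDD. It was 14.99, 12.78, 14.33 and 14.44 in control morphants in DMSO. In slincR morphants it was 15.16, 14.67, 14.53 and 12.81 in TCDD, and 13.12, 13.08, 13.39 and 15.2 in DMSO. This percent was thus partly tied to the groups compared. The lists deposited by the authors give a log2 fold change and an adjusted p-value per gene. Symbols came from a table naming 26433 of 32266 identifiers, plus 4 from the authors' lists.

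Counts were filtered with filterByExpr (minimum count 10), scaled by TMM and fitted with edgeR 4.0.16 (R 4.3.3) to all 16 samples, with a mean per group, 12 residual degrees of freedom and 5 contrasts; the fitting was checked on simulated data. Adjusted p-values for genes come from its quasi-likelihood test with Benjamini-Hochberg adjustment over all 20630 genes, threshold 0.05. The standard error (SE) is the fold change divided by the square root of F. Alternatives used limma 3.58.1, DESeq2 1.42.0, other scaling, no filter, only the groups compared, a replicate block, a covariate for the percent of entries in no gene, and each sample left out. The members, lists and settings were chosen with earlier results of these data known. Members past the threshold, the 3 of smallest p per contrast and 9 layer markers are given in every sample. Other members are named as extremes or relatives, and genes of other lists where they passed.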

Additional observations from a re-analysis of the deposited data

Results flagged for a closer look

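Among the 124 combinations of 31 members and 4 groups, 10 held a sample far from the other 3 of its group (the gap to the nearest sample, over the group's range, above Dixon's 95% critical value), where chance gives about 1 in 20. In control morphants in TCDD, replicate 3 was high for PPL (364 CPM against 317 to 323 in the others), cldnb (29.4 against 20.1 to 21.4), krt18a.1 (229 against 192 to 194) and anxa1c (222 against 170 to 175). Replicate 2 of that group was high for cyt1l (579 CPM against 387 to 405), and replicate 4 was low for krt17 (11.4 against 15.8 to 16.3). In slincR morphants in TCDD, replicate 4 was low for cldni (184 CPM against 213 to 214) and high for krt91 (585 against 458 to 474). In slincR morphants in DMSO, replicate 4 was low for krt18a.1 (172 CPM against 206 to 212) and replicate 2 for krt97 (10.5 against 23.6 to 25.1).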

How the results depend on the processing

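Over all genes, DESeq2 called 275 genes with TCDD in control morphants, 165 with TCDD in slincR morphants, 97 between morphants in DMSO and 244 between morphants in TCDD, against 128, 79, 31 and 92. Fits to only the groups compared called 69, 125, 17 and 180, and fits with the percent of entries in no gene as covariate 283, 130, 99 and 287. Without a filter on low counts 54 passed between morphants in DMSO. Leaving out each sample in turn gave 70 to 155, 61 to 114, 17 to 52 and 22 to 115 genes. The difference between the TCDD responses, which needs all 4 groups and so has no fit to only the groups compared, held 0 genes in the other 23 settings. Of the members, with TCDD in control morphants 1 passed in the fit to only the groups compared, and 1 to 2 with a sample left out; krt1-19d passed in all 24 settings (log2 fold change 0.90 to 1.19, adjusted p up to 0.0315), and krt15 was lost in 6 (−0.69 to −0.44). With TCDD in slincR morphants 1 member passed with library totals, without the filter and with the covariate, 2 under DESeq2 and in the fit to only the groups compared, and 0 to 2 with a sample left out. Between morphants in DMSO 0 passed with RLE factors, library totals, limma-voom and only the groups compared, and 0 to 1 with a sample left out. Between morphants in TCDD 1 passed under DESeq2, without the filter, in the fit to only the groups compared and with the replicate block, and 0 to 1 with a sample left out. Same-numbered samples had correlations of −0.18 to 0.13 in their deviations, and 4 of 16 libraries correlated best with their own number. These values show no pairing by replicate number, but they cannot exclude a shared batch. With the replicate block, icn2 between morphants in TCDD passed (edgeR adjusted p = 0.024). There msx2b with TCDD in control morphants did not pass (edgeR adjusted p = 0.0695). Of 44 fold changes recomputed, 42 kept their sign throughout; the differences between TCDD responses of icn2 (0.09; −0.04 to 0.22) and krt15 (0.10; −0.04 to 0.21) changed sign with a sample left out. Of the genes of other lists, msx2b was lost in 15 of 24 settings, BMP4 in 7, FABP2 in DMSO in 4 and twist3 in 3. The cause of these changes was not tested.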
